A study of Mus musculus with 4 samples.

Results

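Broad DNMT3B-enriched islands that lie entirely beyond the end of the gene they were paired with are described here. They come from 4T1, a line of mammary tumour cells derived from BALB/c mice, sampled as metastases in the lung. An island was counted when its paired transcript had an NM_ accession, which RefSeq gives to protein-coding messages, and when its nearest edge lay past the gene end, read on the strand of the gene. Of 8242 listed islands, 7815 were paired with NM_ transcripts, and 1173 of these (15.0%) lay wholly downstream, at 1025 genes. A further 913 lay wholly upstream and 5729 overlapped their gene. The label of the island list marks it as a top selection, by a rule that is not given. Islands outside it are not seen here, so absence from the list does not mean that none was called. The study made 4 libraries: 2 by chromatin immunoprecipitation with an antibody against DNMT3B (ChIP), labelled lung 3 and lung 5, and 2 from input DNA without antibody, with the same lung labels. All were labelled as 4T1 cells in lung metastases of BALB/c mice, and no treatment or age was given. Whether the lung labels mark separate mice is not stated, and how far lung cells entered the samples cannot be read from positions. The lists give positions for the whole series, with no read count or score, so no value belongs to a library, the depth of each is unknown and no spread between replicates or test between libraries could be computed.

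DNMT3B is a de novo DNA methyltransferase: it adds methyl groups to cytosines that are followed by guanine (CpG sites) without needing a methylated template. Its PWWP domain binds a histone mark laid down along transcribed gene bodies, and promoters rich in CpG sites are usually kept free of methylation. Beyond the end of a gene, transcription runs on past the polyadenylation site before it terminates, and in dense parts of the genome the next gene may begin there.

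Several downstream islands held narrow enrichment at the start of a different gene. In 7 of the 1173 a narrow region of the second deposited list, made with MACS, was placed by the authors at most 250 bp upstream of such a gene. For 4 of these genes the RefSeq table (GRCm38.p6) holds a single promoter window. They are Rela, which encodes an NF-kB subunit, Plcb3, a phospholipase C, Tuba4a, an alpha-tubulin, and Wdr90, a WD-repeat protein. Their windows run from 250 bases before to 50 bases after the gene start, 5′ to 3′ on the strand of the gene, with each CpG in capitals. They are shown as starts at which narrow enrichment and a downstream island meet. The other 3 such genes were Rara, with 4 windows of 5 to 21 CpG sites, Itgb4 and Rasd1. At any distance, 14 of the 83 narrow regions in downstream islands were placed upstream of their nearest gene, against 351 of 1705 in the whole list. Such placement was therefore not particular to downstream islands. No count within 250 bp was made for the whole list or for upstream islands.
Rela: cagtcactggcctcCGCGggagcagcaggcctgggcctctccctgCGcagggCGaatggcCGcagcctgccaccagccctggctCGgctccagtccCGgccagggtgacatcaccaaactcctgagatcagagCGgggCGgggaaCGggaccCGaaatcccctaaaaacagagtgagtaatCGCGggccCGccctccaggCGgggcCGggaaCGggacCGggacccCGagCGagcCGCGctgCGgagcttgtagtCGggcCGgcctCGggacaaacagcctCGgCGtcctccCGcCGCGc
Plcb3: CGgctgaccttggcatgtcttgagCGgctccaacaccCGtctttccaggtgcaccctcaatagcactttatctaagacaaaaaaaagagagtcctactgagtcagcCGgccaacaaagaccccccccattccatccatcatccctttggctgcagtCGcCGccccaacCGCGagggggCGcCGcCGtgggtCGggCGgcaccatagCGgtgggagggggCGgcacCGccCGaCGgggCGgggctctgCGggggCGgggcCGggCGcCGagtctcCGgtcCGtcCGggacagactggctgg
Tuba4a: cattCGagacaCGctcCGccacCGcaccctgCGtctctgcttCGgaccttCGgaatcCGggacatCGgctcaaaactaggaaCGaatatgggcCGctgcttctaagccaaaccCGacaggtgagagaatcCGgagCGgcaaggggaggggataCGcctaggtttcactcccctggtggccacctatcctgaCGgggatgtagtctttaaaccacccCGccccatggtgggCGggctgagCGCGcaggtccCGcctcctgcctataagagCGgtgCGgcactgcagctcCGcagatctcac
Wdr90: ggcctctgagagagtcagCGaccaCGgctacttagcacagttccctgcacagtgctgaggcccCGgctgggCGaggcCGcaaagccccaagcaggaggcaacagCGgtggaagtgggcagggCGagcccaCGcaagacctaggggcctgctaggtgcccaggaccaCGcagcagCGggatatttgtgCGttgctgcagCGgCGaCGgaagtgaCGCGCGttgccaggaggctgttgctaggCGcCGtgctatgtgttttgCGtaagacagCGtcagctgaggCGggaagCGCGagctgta

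The Rela window, on chromosome 19, held 31 CpG sites, more than 89.4% of all promoter windows of the same length in the table. Plcb3, also on chromosome 19, had 27 CpG sites, and Tuba4a on chromosome 1 and Wdr90 on chromosome 17 had 24 each. By the authors' distances the narrow regions lay 160 bp upstream of Rela, 65 bp upstream of Plcb3, 71 bp upstream of Tuba4a and 39 bp upstream of Wdr90. The positions at Tuba4a and Wdr90 are rounded to 100 bp, more than these distances, and those at Rela and Plcb3 to 10 bp. The islands that held them were paired with Sipa1, a GTPase-activating protein for Rap, with Fkbp2, an endoplasmic reticulum immunophilin, with the kinase gene Stk16 and with Fam195a. The windows were found by gene symbol, so whether their start is the one used in the deposited distances is not known. All 4 of these islands were chosen after their values were seen.

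Islands lay more densely in the first kilobase past the gene end than farther out. The gap, the distance from the gene end to the nearest island edge, had a median of 4694 bp and quartiles of 2128 and 7294 bp. Of the 1173 islands, 169 (14.4%) began within the first 1 kb. The other 1 kb bins out to 10 kb held between 95 and 132 islands each, 112 on average, so the first bin held 1.51 times their mean. Islands upstream of their gene gave no such count near the gene: 73 lay within 1 kb of the gene start, 0.782 times the mean of 93.3 in their other bins. In total, downstream islands were 1.28 times as many as upstream islands, with flanks of 10 kb on both sides of every gene. Listed downstream islands stood at 4.67% of the 21900 protein-coding genes in the RefSeq table, and listed upstream islands at 3.65%. Each island is listed with 1 gene, by a rule that is not given. An island between 2 genes therefore counts for a flank by that choice. The difference between the flanks was not tested, since islands are not replicates.

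**Figure D1:**
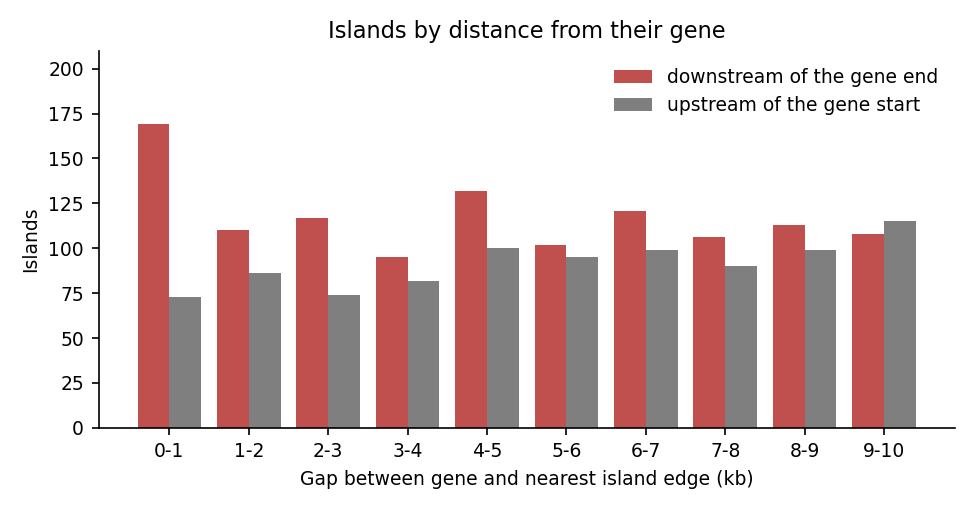
Number of islands in each 1 kb of distance between the gene and the nearest island edge, for islands downstream of the gene end and upstream of the gene start. The first kilobase held 169 downstream and 73 upstream islands.

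The closest islands almost touched their gene. That of Cirbp, a cold-inducible RNA-binding protein, began 2 bp past the gene end, on chromosome 10 from 79634400 to 79642199. Gaps of 11 bp at Cx3cr1, the fractalkine receptor, of 16 bp at Gpx4, which reduces lipid peroxides, and of 19 bp at Ccdc79, Stk16 and Ypel1 followed. Gaps were at most 100 bp at 17 islands. Just outside the definition, islands at Secisbp2, Tmem130 and Hmga1 ran out of the gene and shared 16, 17 and 18 bp with it. Island starts fall on steps of 200 bp, so these cases are not separable at the resolution of the list. At the far end, the largest gaps were 9960 bp at Tmem214 and 9949 bp at Fam70b, next to the 10 kb at which the list stops.

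Downstream islands were about as wide as the others. They were 4600 bp wide at the median (quartiles 2800 and 7000 bp) and ranged between 200 and 48600 bp. Upstream islands had a median of 4600 bp and overlapping islands one of 4800 bp. Together the downstream islands covered 6.56 Mb. There were 39 under 1 kb, 130 of at least 10 kb and 23 of at least 20 kb. Since a wide island is more likely to touch its gene, widths of these classes are not independent of how the classes are defined. In 569 islands (48.5%) the far edge lay beyond the 10 kb window that the list uses to pair islands with genes.

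The widest islands reached far from the gene that names them. The island of Chmp6, which encodes a subunit of the ESCRT-III membrane-scission complex, spanned 48600 bp on chromosome 11 from 119785600 to 119834199. It began 4734 bp past the gene end, and its narrow region at 119804000 was placed by the authors 405 bp upstream of Baiap2, an adaptor of the actin cytoskeleton, a distance finer than the 1000 bp to which this position is rounded. The island of Wfdc1, a secreted protease-inhibitor-like protein, spanned 37400 bp on chromosome 8 from 122216000 to 122253399. The start of Atp2c2, a calcium pump of the secretory pathway, lay within it, 11988 bp past the end of Wfdc1. The island of Myl7, the atrial myosin light chain, spanned 35400 bp on chromosome 11 from 5753800 to 5789199, and its narrow region was contained within Aebp1, a matrix-associated carboxypeptidase-like protein.

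Of the others among the 10 widest, the island of Chrac1, a histone-fold subunit of a chromatin remodelling complex, had 34200 bp and reached Eif2c2, which encodes an Argonaute protein. Tbc1d16, a GTPase-activating protein gene, had an island of 25400 bp that began 757 bp past its end. The island of Cdc6, which licenses replication origins, had 29600 bp and held the start of Rara, retinoic acid receptor alpha, along with 2 narrow regions. Those of Tbrg4 (25600 bp) and Map1lc3b (24600 bp), the autophagy protein LC3B, reached into Ccm2 and Zcchc14. The island of Arpc1a, an Arp2/3 subunit, had 25000 bp and reached no other gene of the list. Of those described, 5 lay on chromosome 11.

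**Figure D2:**
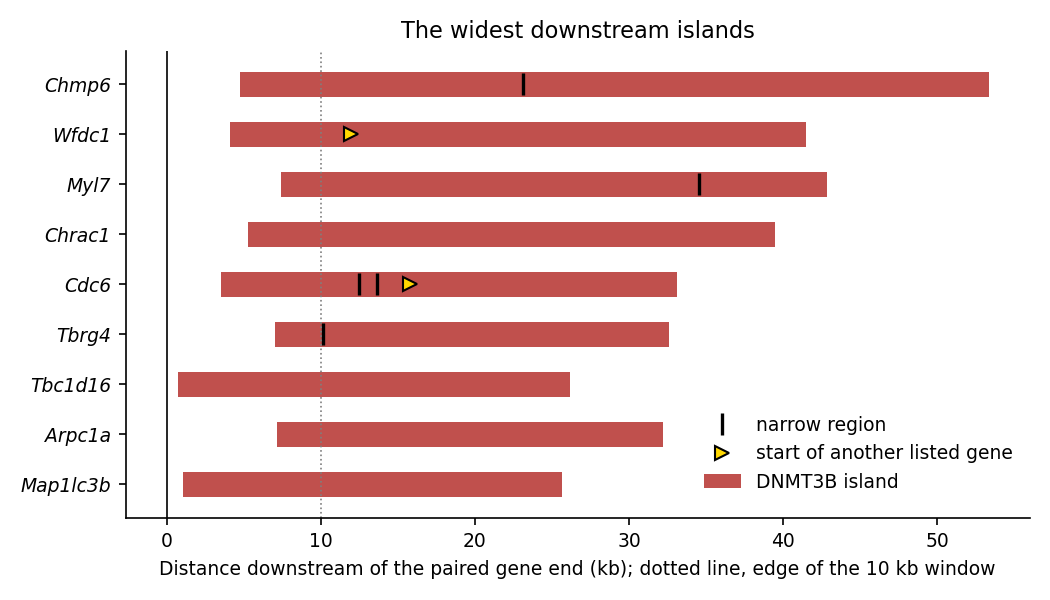
The 9 islands described among the 10 widest downstream islands, drawn as bars by distance in kb from the end of the paired gene (solid line at 0), with narrow regions as black ticks and the start of another listed gene as a triangle. All 9 extend past the dotted line at 10 kb, and the island of Chmp6 is 48600 bp wide.

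Some islands downstream of the paired gene reached into another listed gene. Of the 1173 islands, 334 (28.5%, exact 95% binomial interval 25.9 to 31.2) shared at least 1 bp with the body of another gene that appears in the island list. Among all islands with NM_ transcripts the share was 10.1%, and among upstream islands 26.0%, so this share was close to that on the other flank. Another listed gene enclosed 179 islands (15.3%), against 12.0% of upstream islands and 3.98% of all islands with NM_ transcripts. In 224 (19.1%, against 18.0% and 5.52% in the same order) the 10 kb window of another listed gene covered more of the island than that of the paired gene did, so the pairing was not always to the gene with the longest overlap. Overlapping islands make up 73.3% of all islands with NM_ transcripts, so the contrast with that set follows in part from how the classes are defined. Only genes of the list could be compared, so genes with no paired island add to these counts by an unknown amount.

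A listed gene started inside 72 downstream islands (6.14%, 4.83 to 7.67), against 5.81% of upstream islands and 2.87% of all islands with NM_ transcripts. In 58 of the 72 the second gene was on the same strand as the paired gene, so that transcription of both runs the same way, and in 14 on the opposite strand only. Among the 53 upstream islands with such a start, 14 had it on the same strand and 39 on the opposite strand only. By geometry, a downstream neighbour on the same strand has its start facing the paired gene, and on the upstream side an oppositely oriented neighbour has.

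After Atp2c2 and Rara, 8 more starts lay in the 10 widest islands that held one. H2-D1, a class I histocompatibility gene, began in the 23400 bp island of Atp6v1g2, a subunit of the vacuolar proton pump, on chromosome 17 from 35377000 to 35400399. H2-D1 has near-identical relatives, and how reads shared between them were placed is not given. Ralgds, a guanine nucleotide exchange factor for Ral, began in the 21800 bp island of Gbgt1, a glycosyltransferase gene. Dync1li2, a dynein light intermediate chain, began in the 19600 bp island of Ccdc79. Itgb4, the integrin of hemidesmosomes, began in the 16400 bp island of Sap30bp on chromosome 11 from 115829200 to 115845599. The last 4 were Cdt1, a replication licensing factor, in the island of Galns, Inpp5j, an inositol phosphatase gene, in that of Pla2g3, Lrsam1, a ubiquitin ligase gene, in that of Slc2a8, and Stx1a, a syntaxin gene, in that of Abhd11. Of these, Cdt1 and Inpp5j run opposite to the paired gene.

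Promoter windows of genes that start inside a downstream island held more CpG sites at the median than all promoter windows together. Of 72 such genes, 59 were found in the RefSeq promoter table, with 89 windows. Each window was searched for CG, which reads the same on both strands. The median was 18 per window (quartiles 8 and 27), and 63 windows (70.8%) held at least 10. In the whole table of 32851 windows the median was 7 (quartiles 3 and 20), and 43.5% held at least 10. The ratio of observed to expected CpG had a median of 0.691 in these windows and 0.384 in all. The whole table spans 27025 genes. No count was made for protein-coding genes alone, for other listed genes or for starts inside upstream islands. Whether the difference is particular to downstream islands therefore cannot be read from these values. Windows of the same gene overlap in places, and each of these genes is itself paired with an island, so this is a description of sequence and not a test.

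Narrow regions marked 68 downstream islands (5.80%, exact interval 4.53 to 7.29), against 4.79% of all islands with NM_ transcripts and 5.81% of upstream islands. These shares lie within the intervals of each other for the 2 flanks. The 68 islands held 83 narrow regions: 57 held 1, 11 held more, and the most in an island was 4. Their median width was 6300 bp, against 4400 bp for downstream islands without one. The share differed with the gene positions: where the listed gene end lay within 1 kb of GRCm38, 19 of 88 islands (21.6%) held a narrow region, and elsewhere 49 of 1085 (4.52%) did. By chromosome, the counts at equal and at other positions were 13 of 30 and 3 of 31 on chromosome 19, 5 of 45 and 1 of 5 on chromosome 16, and 1 of 11 and 6 of 115 on chromosome 8. Of the 19, 13 thus lay on chromosome 19. The part of the genome build in the number of narrow regions was not tested.

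The authors' own wording for these narrow regions named a different gene in most cases. Of the 83, 77 had another gene as nearest feature and 6 (7.23%, exact interval 2.70 to 15.1) the gene paired with the island. In upstream islands 13 of 71 narrow regions (18.3%, 10.1 to 29.3) had the paired gene as nearest, and in overlapping islands 240 of 336 (71.4%, 66.3 to 76.2). Only overlapping islands share bases with their paired gene, so their contrast with both flanks follows in part from how the classes are defined. Of the 83, 47 were contained in or partly overlapped the named gene, 16 were only in an intron of it and 14 lay upstream of it, 11 of these within 1 kb. By the same wording, 63 of the 83 thus touched the named gene. In the whole list of 1705 distinct narrow regions, 1294 touched the named gene, 351 lay upstream of it and 60 downstream. The mix in downstream islands was therefore close to that of the whole list. Of the 62 islands whose narrow regions pointed elsewhere, 14 led, by their first narrow region, to a gene that is itself in the island list.

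**Figure D3:**
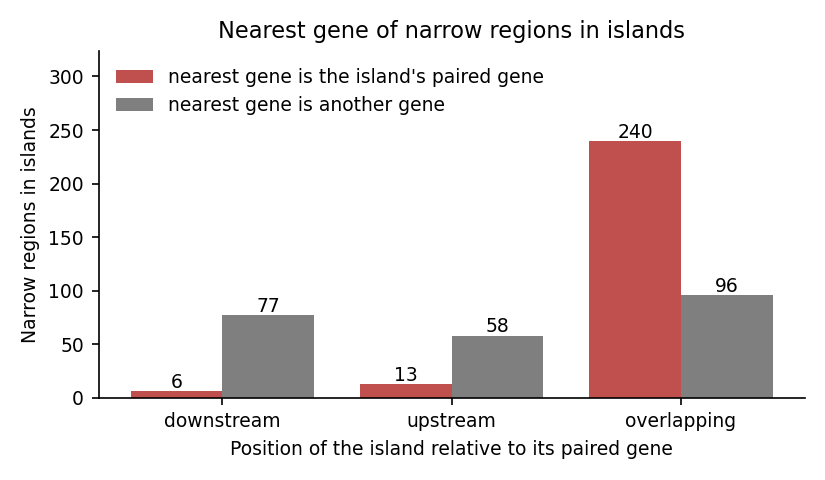
Number of narrow regions that fall in downstream, upstream and overlapping islands, split by whether the authors' nearest gene is the gene paired with the island. In downstream islands 6 narrow regions named the paired gene and 77 another gene, while in overlapping islands 240 named the paired gene and 96 another. Only overlapping islands touch the paired gene by definition, which in part sets this contrast.

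The island with most narrow regions was paired with Pias4, a SUMO ligase gene. It had 10800 bp on chromosome 10, began 5116 bp past the end of Pias4, and its 4 narrow regions, the first from 80606700 to 80606800, were all contained within Zbtb7a, a transcriptional repressor gene. The 5200 bp island of Klhl22, an adaptor of a ubiquitin ligase, held 3 narrow regions within Scarf2, a scavenger receptor gene, on chromosome 16. The 4200 bp island of Sema4g, a semaphorin gene, held 3 on chromosome 19, of which 2 lay in Mrpl43, a mitochondrial ribosomal protein gene, and 1 overlapped Peo1, the mitochondrial replicative helicase.

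The other 8 islands with more than 1 narrow region held 2 each. That of Cdc6 had both upstream of Rara, at 10 and 1210 bp by the authors' distance, with the nearer position rounded to 100 bp. In the island of Atp6v1g2, 1 was in an intron of the RNA helicase gene Ddx39b and the other was contained within both H2-D1 and H2-L, with H2-L given as nearest. The islands of 1200009I06Rik and Inpp5k had both in Tnfaip2, a gene induced by tumour necrosis factor, and in introns of Myo1c, an unconventional myosin. The island of Sart1 had 1 each in Banf1 and Eif1ad, and that of Bbs1 both in Zdhhc24. Those of Matk and Reep6 had both in Mrpl54 and Adamtsl5.

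Next by width came islands with 1 narrow region. After Chmp6 and Myl7, the 25600 bp island of Tbrg4 had its narrow region in an intron of Nacad. The 23800 bp island of Tspan10, a tetraspanin gene, had one that overlapped Hgs, an ESCRT component of endosomal sorting, and Arl16. That of Tmem134 overlapped Coro1b, an actin regulator, and that of Ip6k3 was contained within the calcium channel gene Itpr3. Cyp2w1 had its narrow region in an intron of 3110082I17Rik. In the island of Sap30bp, the narrow region lay 38 bp upstream of Itgb4 by the authors' distance, at a position rounded to 1000 bp.

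A further 4 smaller islands of this kind are named here, chosen after their values were seen. The island of Dnahc2, an axonemal dynein gene, had its narrow region in an intron of Kdm6b, a histone demethylase gene. That of Ovca2 had it within Hic1, a transcriptional repressor gene known for hypermethylation in cancer, although the island itself had 1800 bp and the narrow region, from 74982500 to 74982600, shared only its first base. That of Afmid had it in an intron of Birc5, which encodes survivin. The island of AA960436 had it within Mmp15, a membrane-bound metalloproteinase gene.

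The 6 islands whose narrow region the authors also placed downstream of the paired gene were those of Irs2, Col4a1, Mmp9, Cdkn1b, Scarf2 and 1700019O17Rik. At Irs2, an adaptor of the insulin receptor, the island had 5400 bp on chromosome 8 from 10975000 to 10980399, and the narrow region lay 8164 bp downstream of the gene. At Mmp9, a matrix metalloproteinase, the island had 4000 bp and the narrow region lay 4650 bp downstream. At Cdkn1b, the cell cycle inhibitor p27, the island had 1800 bp and began 1257 bp past the gene end, with the narrow region 1456 bp downstream. The positions of the narrow regions at Mmp9 and Cdkn1b are rounded to 1000 bp. The distances were 10123 bp at Col4a1, a basement membrane collagen, 7119 bp at Scarf2 and 6375 bp at 1700019O17Rik. These 6 are among 60 narrow regions that the authors describe as downstream of their nearest gene, 28 of them within 10 kb.

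Most genes had a single downstream island. There were 881 genes with 1, 140 with 2 and 4 with 3. The 4 were Arhgap27, a GTPase-activating protein, with a summed width of 20600 bp, Septin4 (9200 bp), Dnajb13 (6200 bp) and Unc119b (5600 bp). Arhgap27 owed its 3 to a pair of transcripts with different ends, and 1 of its islands lay beyond the end of the shorter transcript and held the start of the other. At Septin4, a filament-forming GTP-binding protein whose name a spreadsheet had turned into a date, the islands began 559, 6159 and 8159 bp past the gene end. At Dnajb13, a chaperone of sperm tails, gaps were 3129, 4929 and 7529 bp, and at Unc119b, a lipid-binding trafficking factor, 2775, 4575 and 8575 bp. Among genes with 2, Cdc6 (30400 bp), Arpc1a (28800 bp), the ribosomal protein gene Rpl27 (22200 bp), Top3b, a topoisomerase (19600 bp), Tor2a (19400 bp) and Ggt6, a gamma-glutamyltransferase family member (19200 bp), had the largest summed widths.

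Such groups were often broken by short gaps. SICER islands were never closer than 600 bp to each other, and 371 downstream islands (31.6%) had a neighbouring island at exactly that spacing, against 29.8% of all islands with NM_ transcripts. Another island lay within 10 kb of 856 (73.0%), against 76.6% of upstream islands and 70.4% of all islands with NM_ transcripts. Counts of islands per gene are given as the caller split them.

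Most of the genes had islands elsewhere too. Of 1025 genes, 612 (59.7%) had an island in another position, 577 (56.3%) one that overlapped the gene, 307 one over the gene end, 260 (25.4%) one over the gene start and 185 (18.0%) one upstream. For the remaining 413 genes (40.3%), the listed islands were all downstream. Among 799 genes with an upstream island, 506 (63.3%) had one elsewhere and 471 (58.9%) one that overlapped the gene. Of all 3749 genes with islands at NM_ transcripts, 3008 had one that overlapped the gene and 799 one upstream. Islands over the gene start or end were not counted over all these genes.

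Downstream islands, like upstream ones, were paired with shorter genes than overlapping islands. The median length of the paired gene was 13818 bp for downstream, 11706 bp for upstream and 40669 bp for overlapping islands. These medians are taken over islands, so a gene with several islands counts more than once. By quartiles of gene length, downstream islands made up 29.2% (exact interval 26.8 to 31.6) of the islands at the shortest genes, then 20.3%, 13.3% and 5.83% at the longest. Upstream islands followed with 25.2%, 15.8%, 9.48% and 3.79%. A gene body leaves more room for islands the longer it is, while both flanks stay at 10 kb.

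**Figure D4:**
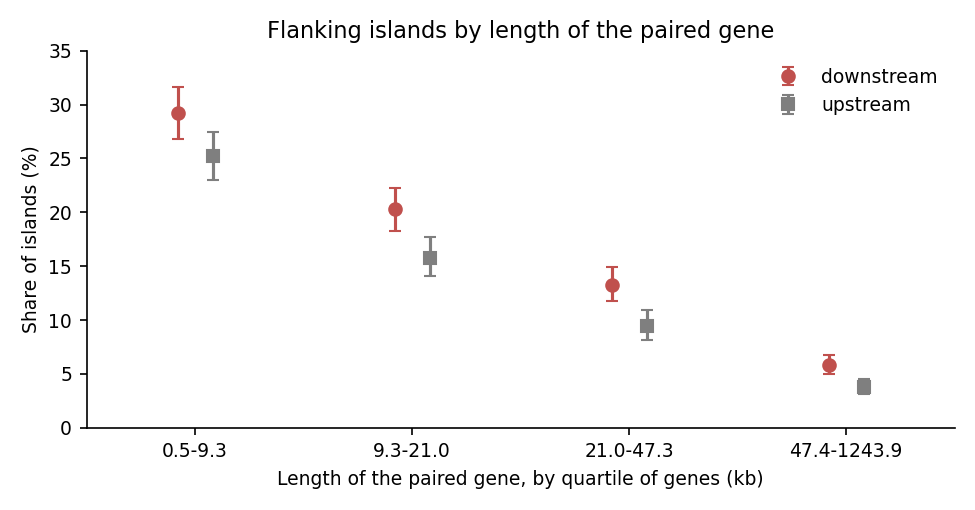
Share of islands that lie downstream and upstream of the paired gene, by quartile of gene length in kb, with exact 95% binomial intervals that cover counting error only. The downstream share was 29.2% at the shortest genes and 5.83% at the longest.

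Across the chromosomes with at least 10 islands, the downstream share lay between 10.3% and 23.2%, against 15.0% in all. Chromosome 11 held most downstream islands, 182 (15.5% of them), and also most islands of any kind, so its downstream share was 16.2% (14.1 to 18.5). Chromosome 8 had 126, and chromosomes 2 and 5 had 110 each. The share was highest on chromosome 13, where 13 of 56 islands leave an interval of 13.0 to 36.4%, followed by 21.5% (16.7 to 26.9) on chromosome 7. It was lowest on chromosome 12, with 10.3% and an upper limit of 14.4%. Of the 4 NM_ islands on the X, 1 was downstream. By strand, 592 islands belonged to genes on the plus strand and 581 to genes on the minus strand.

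**Figure D5:**
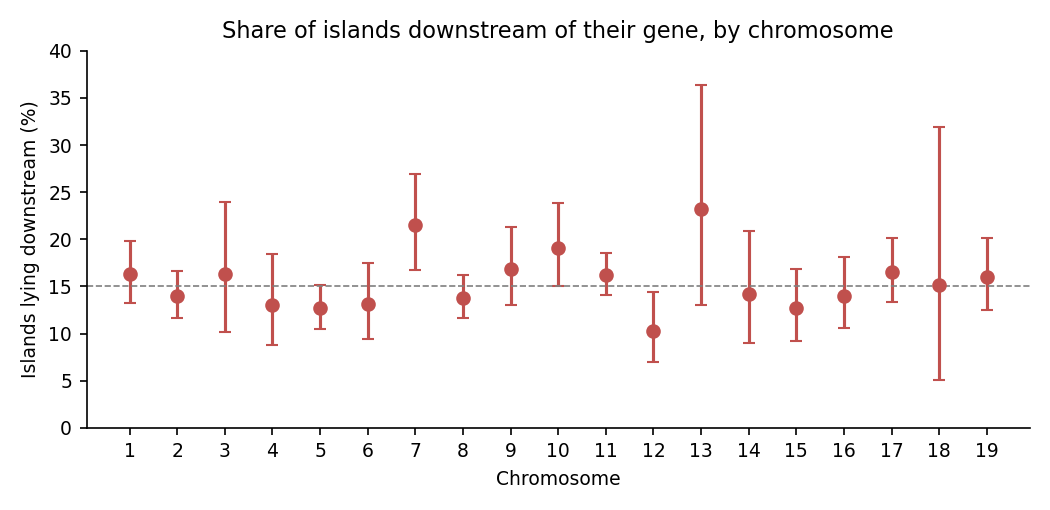
Share of islands with NM_ transcripts that lie downstream of their gene on each chromosome, with exact 95% binomial intervals; the X, with 4 islands, is not drawn. The dashed line is the share over all chromosomes, 15.0%.

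Signalling genes among the members were counted in 15 lists, against the background of 4.67% of protein-coding genes with a downstream island, or 27.3% of the 3743 that have any listed island. No list was tested. Exact intervals were wide and included 4.67% for every list but Wnt (7.65 to 30.8%), Notch (5.11 to 31.9%) and IL6 and STAT3 signalling (8.97 to 43.6%). Genes with an upstream island numbered 4 for Wnt, 5 for Notch, 5 for IL6 and STAT3 and 0 for NF-kB signalling. The upstream share over all protein-coding genes was 3.65%. Where the downstream island of a gene described here reached another listed gene, that gene is given.

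In Wnt signalling, secreted ligands act through Frizzled receptors and Dvl proteins to stabilise beta-catenin, which Axin1 helps degrade. Of 47 genes, 8 (17.0%) had a downstream island, of 24 with any island. The ligand genes were Wnt3 (9200 bp island, 4065 bp past the end), Wnt3a (3200 bp, gap 5944 bp), Wnt6 (5400 bp, gap 4507 bp), Wnt7b (2600 bp, gap 4267 bp), Wnt9b (6000 bp, gap 4677 bp) and Wnt11 (2400 bp, gap 5543 bp). The start of Wnt10a lay inside the island of Wnt6. Of the transducers, Dvl1 had an island of 3000 bp that began 788 bp past its end. Axin1 had islands of 4800 and 3400 bp, at 444 and 6044 bp.

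In Notch signalling, cell-surface ligands trigger release of the receptor's intracellular part by gamma-secretase. Of 33 genes, 5 (15.2%) had a downstream island, of 16 with any. Among them were the receptor gene Notch3 (6600 bp, gap 1038 bp), the ligand gene Jag2 (3800 bp, gap 1201 bp), the glycosyltransferase gene Lfng (4600 bp, gap 5701 bp) and the ubiquitin ligase gene Dtx1 (2600 bp, gap 2273 bp). The island of Lfng reached Ttyh3.

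In IL6 and STAT3 signalling, receptor-bound JAK kinases phosphorylate STAT factors, and SOCS proteins inhibit the response. Of 26 genes, 6 (23.1%) had a downstream island, of 13 with any. The kinase genes were Jak1 (400 bp, gap 3979 bp) and Tyk2 (3000 bp, gap 5312 bp). Stat5a had islands of 800 and 8000 bp on chromosome 11, at 2117 and 3517 bp, and both overlapped the listed body of its neighbour Stat3. The inhibitor genes were Socs1 (5800 bp, gap 4302 bp), Socs3 (3000 bp, gap 9401 bp) and Socs7 (3200 bp, gap 944 bp). In NF-kB signalling 4 of 29 genes (13.8%) had one, of 13 with any island: the subunit gene Nfkb2 (3000 bp, gap 6220 bp, reaching Psd), the inhibitor gene Nfkbie (5600 bp, gap 3083 bp), the adaptor gene Traf1 (3200 bp, gap 578 bp) and the kinase gene Map3k14 (1600 bp, gap 2678 bp, reaching 4933400C05Rik).

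TGF-beta and BMP signalling had 3 of 33 genes (9.09%), of 11 with any island. These were the receptor genes Acvr1b (3800 bp, gap 8968 bp) and Acvr2b (5800 bp, gap 576 bp) and Ltbp3, which binds latent TGF-beta (8400 bp, gap 4468 bp). PI3K and Akt signalling had 3 of 31 (9.68%), of 14 with any island, among them the mTOR inhibitor gene Tsc1 (4200 bp, gap 7513 bp) and Irs2. Among genes of epithelial-mesenchymal transition 3 of 32 (9.38%) had one, of 14 with any island, namely the tight junction gene Cldn4, with islands of 4200 and 7200 bp, the plakophilin gene Pkp1 and Mmp9. The DNA methylation machinery had 3 of 21 (14.3%), of 6 with any island: Uhrf1, which guides maintenance methylation (7000 bp, gap 3091 bp, reaching Kdm4b), Mbd3 (5200 bp, gap 5286 bp, reaching Mex3d) and Gadd45b (8600 bp, gap 3851 bp). Dnmt3b itself had no listed downstream island.

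Tumour suppressors had 3 of 38 genes (7.89%), of 12 with any island: Cdkn1b, Stk11 and Vhl, and the start of Dos lay inside the island of Stk11. Endothelial and stromal markers had 2 of 18 (11.1%, of 7 with any island), Cldn5, whose island reached Cdc45, and Col1a1. Housekeeping genes had 2 of 24 (8.33%, of 7), Ywhaz and Rpl19 (the islands of Rpl19 reached Stac2), imprinted genes 2 of 30 (6.67%, of 5), Nnat and Mcts2, and lung epithelium markers 1 of 22 (4.55%, of 3), Foxj1. Prostaglandin E2 synthesis and receptors had 0 of 13 (5 with any island) and immune cell markers 0 of 24 (0 with any island), where exact intervals reach up to 24.7% and 14.2%. The lists overlap in genes, and gene length and chromosome were not held fixed.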

How the data were processed

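Both lists, as deposited by the authors, cover all libraries at once. The tools, per the submitters' processing notes, were Bowtie2 (2.10), MACS (1.4) and SICER, with mm10 as build. The label of the narrow list reads MACS2p05, so the version and threshold behind it are not settled here. No source used here says whether libraries were pooled. In the island list, starts and widths are steps of 200 bp, and the overlap length of all 8242 islands equals that with a window from 10 kb before to 10 kb after the gene. MACS lines (4304) were reduced to 1705 distinct regions, whose positions carry at most 6 significant digits. An unreadable end was set to the start.

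All 1173 islands were matched to the RefSeq gene table (GRCm38.p6) by transcript, symbol or unique synonym. The listed gene end lay within 1 kb of GRCm38 for 88 (7.50%), with a median difference of 186.5 kb over all, so the build of the printed positions is not known and they are given as deposited, with none converted. Downstream islands made up 15.6% of 564 islands with NM_ transcripts at equal gene ends and 15.0% of 7250 at others.

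Gaps are differences of positions. A narrow region was held by an island at 1 shared bp. Exact (Clopper-Pearson) 95% intervals cover counting error only. No test was run, since regions are not replicates. Named were the 10 widest islands, the 20 with most narrow regions (then the widest), the 10 genes with most islands, 5 nearest and 5 farthest islands, up to 30 list genes in list order and the 10 widest islands with another gene start. Other genes were named after their values were seen. A few items that the rule names are not reported here. Members and lists were chosen with earlier results of these data known. Counting steps were tested on simulated data. Python 3.11.15, pandas 2.3.3 and scipy 1.17.1 were used.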

Additional observations from a re-analysis of the deposited data

How the results depend on the processing

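The number of downstream islands, 1173, stayed within 1.5 times with midpoints in place of edges, a gap of at least 1 kb, every transcript accession or islands of at least 3000 bp (877 to 1569). It was 3646 with gene positions of GRCm38 at any distance and 127 within 10 kb, the second chosen after seeing the data; the listed gene ends differ from GRCm38 for most genes, so neither is a count in a single build. The median gap of 4694 bp was 7392 bp to the island midpoint and 5462 bp at the 88 islands with equal gene ends, where the median width was 5000 bp in place of 4600 bp. With the start of another gene required inside the island, 72 islands reached another gene in place of 334, by construction; with at least 50% of the island shared, 276 did. Islands with a narrow region numbered 49 to 70 under the alternatives, in place of 68. The count of genes with islands elsewhere was 609 by transcript, and the share on chromosome 11 was 15.2% with each gene counted once. No library could be left out. No paired analysis was possible because neither list separates the libraries. Depth is unknown, so what the libraries could miss cannot be stated.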
